A study of Mus musculus with 4 samples.

Results

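The 32 genes described here encode enzymes and regulators of cholesterol and fatty acid synthesis. They were chosen by symbol, and each symbol matched 1 of the 32285 genes in the deposited matrices. The set holds 6 genes of the mevalonate pathway, 2 of isoprenoid synthesis and 3 that make squalene and turn it into lanosterol. A further 8 act after lanosterol, 6 sense sterols or move them, and 7 serve fatty acid synthesis, elongation and desaturation. All 32 reached at least 10 UMIs (unique molecular identifiers, each counted as 1 RNA molecule) in 1 of the libraries compared in astrocytes, oligodendrocytes and microglia.

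Cells build cholesterol from acetyl-CoA through mevalonate, farnesyl pyrophosphate, squalene and lanosterol. The genes of this route are switched on together by SREBP2, the product of Srebf2, while SREBP1, the product of Srebf1, acts mainly on fatty acid genes. Scap carries both factors to the Golgi for activation when sterols are scarce, and Insig1 and Insig2 hold Scap back in the endoplasmic reticulum when sterols are plentiful. The brain makes its own cholesterol because lipoproteins of the blood do not cross the blood-brain barrier. Astrocytes export it on APOE particles, and oligodendrocytes use it for myelin.

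The data are single-cell RNA sequencing counts of brain cells, prepared as suspensions enriched in glia, from male targeted-replacement mice that carry human APOE3 or human APOE4 in place of the mouse gene. A set of each genotype was injected intraperitoneally with LPS, a bacterial endotoxin, at 5 mg/kg and killed after 24 h, and the other set was the NaCl control. The 4 groups had 1 library each, and each library pooled 3 mice whose cells cannot be told apart. Every group carried a human APOE allele. Wherever 4 values follow each other, the first pair belongs to APOE3 and the second pair to APOE4, with NaCl before LPS in each pair.

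No group was replicated, so no difference was tested. Every interval below is a 95% interval that covers counting error only. Total UMIs ranged from 73288965 to 114378032 per library, and the median barcode held 3969, 5640.5, 4236 and 1292 UMIs. The APOE4 LPS library stood apart, with 37.5% of its barcodes under 1000 UMIs, 42.6% of its kept cells in clusters that received no name (0.675% to 3.60% in the other libraries) and no doublets removed, because the doublet caller marked none. Libraries shared 61 to 140 cell barcodes pairwise, at most 0.963% of the smaller library. Levels are given in CPM, the UMIs of a gene scaled to the total UMIs of its cell class in that library, which measures a share of the RNA and not an amount per cell.

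The regions just before the start of 4 genes are printed. These genes were lower after LPS in astrocytes (Hmgcs1, Mvd and Insig1) or in oligodendrocytes (Hmgcs1 and Mvk) in both genotypes. Tm7sf2, Dhcr7, Cyp51, Sc5d and Elovl6 were lower in this way too and have regions in the same source, but these are not printed. The sequences are from RefSeq (build GRCm38.p6), run 5′ to 3′ on the strand of the gene, and end at the base before the start of transcription, or for Insig1 before the earlier start in the GENCODE annotation. Capitals mark matches to the sterol regulatory element TCACNCCAC, the site bound by SREBP, and to CCAAT, the site of NF-Y, which acts beside SREBP. Both were searched on both strands, so a CCAAT on the other strand reads ATTGG, and no match of one overlapped a match of the other.
Hmgcs1, chr13:119690101-119690350, plus strand: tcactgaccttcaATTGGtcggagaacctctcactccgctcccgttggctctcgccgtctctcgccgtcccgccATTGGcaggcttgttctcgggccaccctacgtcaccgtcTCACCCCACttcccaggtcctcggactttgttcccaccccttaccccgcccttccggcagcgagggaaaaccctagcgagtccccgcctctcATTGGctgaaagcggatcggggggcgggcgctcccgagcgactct
Mvd, chr8:122443423-122443672, minus strand: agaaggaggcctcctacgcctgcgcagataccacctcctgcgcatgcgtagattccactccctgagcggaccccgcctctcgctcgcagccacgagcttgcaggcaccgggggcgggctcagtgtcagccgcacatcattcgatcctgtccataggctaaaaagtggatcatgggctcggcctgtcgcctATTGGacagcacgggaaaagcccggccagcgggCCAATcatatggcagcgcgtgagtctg
Mvk, chr5:114444019-114444268, plus strand: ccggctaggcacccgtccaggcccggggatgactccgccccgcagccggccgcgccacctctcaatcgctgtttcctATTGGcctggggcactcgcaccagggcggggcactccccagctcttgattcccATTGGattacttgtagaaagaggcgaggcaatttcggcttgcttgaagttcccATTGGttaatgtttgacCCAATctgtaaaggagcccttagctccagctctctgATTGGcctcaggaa
Insig1, chr5:28071162-28071362, plus strand: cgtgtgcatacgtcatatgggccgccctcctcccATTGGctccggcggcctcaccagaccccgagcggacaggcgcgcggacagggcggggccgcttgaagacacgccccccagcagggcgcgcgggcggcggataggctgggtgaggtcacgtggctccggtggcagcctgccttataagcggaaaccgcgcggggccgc
The Hmgcs1 region held 1 match to the sterol regulatory element, with its first base at -137 from the start, and 3 to CCAAT. Mvk held 5 matches to CCAAT, Mvd 2 and Insig1 1, and none of these 3 matched TCACNCCAC. Of the genes not printed, Tm7sf2, Cyp51 and Sc5d held 1 match to CCAAT each, and Elovl6 held none. Dhcr7 held 2 in 1 window and none in its others. The RefSeq promoter table used here held starts for 25 of the 32 genes, in 33 windows of 250 bases. CCAAT occurred in 21 of these windows (63.6%), against 33.8% of all 32851 windows of that length. TCACNCCAC occurred in 1 of the 33 (Hmgcs1) and in 1.05% of all windows. A match describes the letters of a window and does not show binding.

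Astrocytes carried the highest level of 18 of the 32 genes among 12 classes of cells that had at least 50 cells in every library, by the mean CPM of the 4 libraries. Msmo1, the C4-methylsterol oxidase, averaged 595 CPM in astrocytes, 5.12 times the next class, oligodendrocytes at 116 CPM. Nsdhl, Tm7sf2 and Mvd, which act in the removal of C4 methyl groups, the reduction of the C14 double bond and the decarboxylation of mevalonate diphosphate, stood in astrocytes at 2.31, 2.15 and 2.14 times the next class. Oligodendrocytes led for 3 genes, Acaca, Scd1 and Scd2. Scd2, a stearoyl-CoA desaturase, averaged 2502 CPM there and 1049 CPM in astrocytes.

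The other classes led for few members. Elovl6, an elongase of long-chain fatty acids, was highest in oligodendrocyte precursors at 146 CPM. Stard4, a cytosolic sterol carrier, was highest in endothelial cells at 65.9 CPM, 2.59 times the next class. Ebp, the sterol isomerase, was the only member highest in microglia, at 59.4 CPM. Microglia were the lowest of the 12 classes for Hmgcs1 (16.8 CPM), Fdft1 (7.29 CPM) and Sqle (1.29 CPM). Fdft1 encodes squalene synthase and Sqle squalene epoxidase. Differences between neighbouring classes were small for several genes: Lss averaged 16.1 CPM in ependymal cells and 16.0 CPM in astrocytes.

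**Figure D1:**
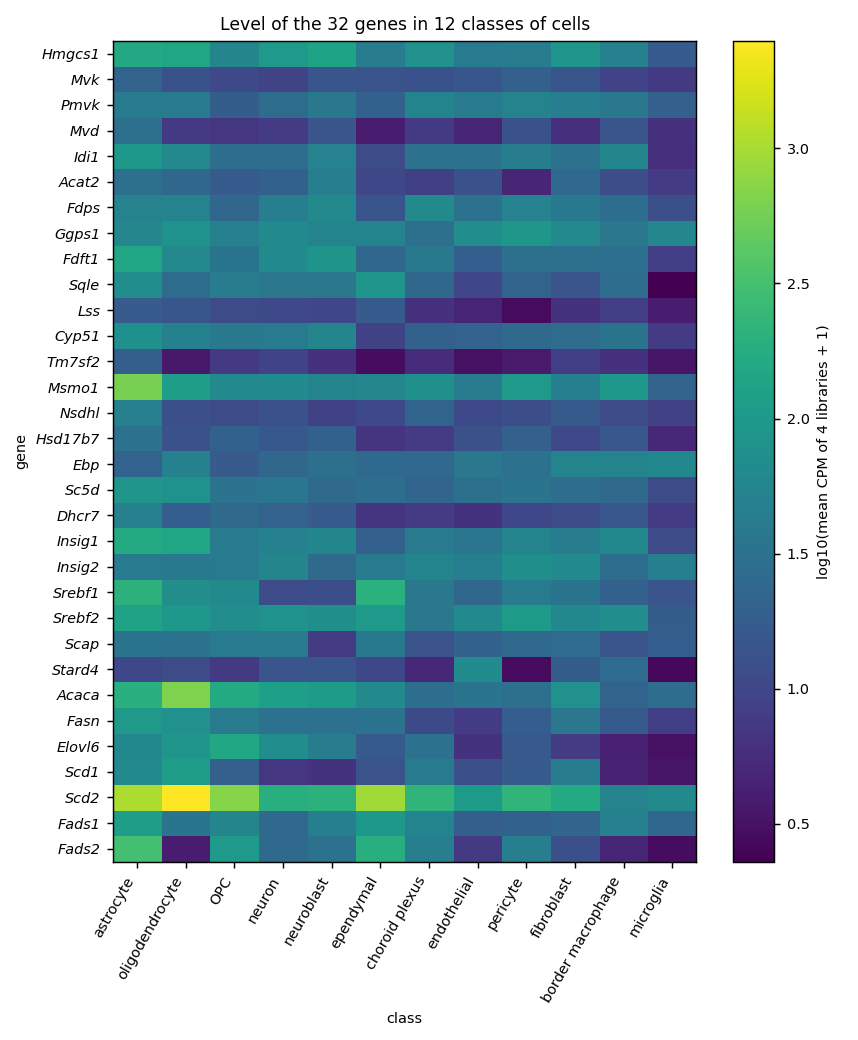
Level of each of the 32 genes (vertical) in 12 classes of cells (horizontal), as log10 of the mean CPM of the 4 libraries plus 1. The brightest cell is Scd2 in oligodendrocytes (2502 CPM), Msmo1 stands out in astrocytes (595 CPM), and the microglia column is dark for most sterol enzymes.

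Cholesterol synthesis genes took a smaller share of astrocyte RNA after LPS in both genotypes. The 19 enzymes of the mevalonate, isoprenoid and sterol steps summed to 1659 CPM (interval 1639 to 1680) without LPS and 1221 CPM (1202 to 1240) with it in APOE3. In APOE4 the sums were 2013 CPM (1990 to 2037) and 1607 CPM (1581 to 1633). Both LPS libraries lay below the NaCl library of their genotype. In APOE3, 28 of 32 members had an LPS to NaCl ratio below 1, 22 with an interval below 1, and 3 had an interval above 1. Of 48 other genes of these pathways, 19 had an interval below 1 and 9 above 1, and no share over all genes is given for such intervals. At least 1.5-fold lower were 6 members, or 18.8%, against 10.4% of all genes measured, and 0 were at least 1.5-fold higher against 7.77%. In APOE4, 30 of 32 ratios were below 1, 8 members (25%) were at least 1.5-fold lower against 9.79% of all genes, and 0 were at least 1.5-fold higher against 11%. The median log2 ratio of the members was -0.35 in APOE3 and -0.34 in APOE4, where the median of all measured genes was -0.06 and -0.03.

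In the mevalonate pathway Mvd and Hmgcs1 were the members that differed most in astrocytes. Mvd, the mevalonate diphosphate decarboxylase, stood at 36.5, 17.1, 42.1 and 20.1 CPM, so that both LPS libraries had lower levels than either NaCl library. It was 2.13-fold lower after LPS in APOE3 (interval 1.83 to 2.50) and 2.09-fold lower in APOE4 (1.77 to 2.48). Hmgcs1, the HMG-CoA synthase of the cytosol, stood at 173, 99.99, 222 and 132 CPM and was 1.73-fold lower in APOE3 (1.62 to 1.85) and 1.68-fold lower in APOE4 (1.57 to 1.80). Idi1, the isopentenyl diphosphate isomerase, was 1.46-fold and 1.37-fold lower, and Mvk, mevalonate kinase, 1.39-fold and 1.57-fold lower. Pmvk and Acat2, a phosphomevalonate kinase and a thiolase, had intervals that included 1 in both genotypes.

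At the branch into isoprenoids, neighbours in the pathway went opposite ways in astrocytes. Fdps, which makes farnesyl pyrophosphate, stood at 52.3, 31.4, 69.3 and 45.5 CPM and was 1.67-fold lower in APOE3 (1.48 to 1.88) and 1.52-fold lower in APOE4 (1.36 to 1.71). Ggps1, which extends that product to geranylgeranyl pyrophosphate and away from sterols, stood at 50.5, 65.1, 50.4 and 64.4 CPM, higher in both LPS libraries by 1.29-fold (1.17 to 1.42) and 1.28-fold (1.15 to 1.43). The 3 genes from squalene synthase to lanosterol synthase, Fdft1, Sqle and Lss, were all lower by less than 1.5-fold. Fdft1 stood at 147, 104, 171 and 140 CPM, and the others were 1.26-fold to 1.38-fold lower.

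Of the 8 enzymes after lanosterol, 7 had a ratio below 1 in astrocytes in both genotypes. Tm7sf2, a sterol C14 reductase, stood at 20.2, 12.1, 26.7 and 13.6 CPM and was 1.67-fold (1.38 to 2.04) and 1.96-fold (1.60 to 2.43) lower. Dhcr7, which makes cholesterol from 7-dehydrocholesterol, stood at 55.9, 33.7, 63.2 and 35.2 CPM and was 1.66-fold (1.48 to 1.86) and 1.80-fold (1.58 to 2.05) lower. Msmo1 fell short of the 1.5-fold threshold, at 586, 439, 704 and 650.0 CPM, with a ratio of 0.750 (0.725 to 0.775) in APOE3 and 0.923 (0.894 to 0.953) in APOE4. Cyp51, Nsdhl, Hsd17b7 and Sc5d were 1.19-fold to 1.49-fold lower. Ebp was the exception and was higher, by 1.22-fold (1.02 to 1.45) and 1.37-fold (1.14 to 1.65).

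Among the sterol sensors of astrocytes, only Insig1 passed the threshold. It stood at 181, 99.1, 226 and 144 CPM and was 1.83-fold lower in APOE3 (1.72 to 1.96) and 1.57-fold lower in APOE4 (1.47 to 1.67). Srebf1 stood at 219.8, 219.6, 217 and 164 CPM, with an LPS ratio of 0.999 (0.951 to 1.05) in APOE3 and 0.759 (0.713 to 0.807) in APOE4, so that the APOE4 LPS library alone was low. Srebf2 stood at 134, 112, 136 and 126 CPM. Scap had ratios of 0.943 (0.828 to 1.07) and 0.969 (0.832 to 1.13), Insig2 of 1.02 (0.903 to 1.14) and 0.945 (0.823 to 1.08), and Stard4, with 125 UMIs in APOE3 NaCl, of 0.929 (0.707 to 1.22) and 0.771 (0.588 to 1.004).

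The fatty acid genes of astrocytes differed less. Their summed level was 2098 CPM without LPS and 1920 CPM with it in APOE3, and 1854 and 1665 CPM in APOE4. Fads2, the delta-6 desaturase of polyunsaturated fatty acids, stood at 368, 283, 343 and 225 CPM, 1.30-fold lower (1.25 to 1.36) in APOE3 and 1.53-fold lower (1.45 to 1.61) in APOE4. Fasn, the fatty acid synthase, had ratios of 0.732 (0.677 to 0.791) and 0.856 (0.788 to 0.929). Scd2 stood at 1161, 1109, 966 and 961 CPM, Acaca, the acetyl-CoA carboxylase that makes malonyl-CoA, at 195, 212, 183 and 182 CPM, and Fads1, the delta-5 desaturase, at 129, 121, 114 and 91.9 CPM. Scd1, a desaturase, stood at 71.3, 62.7, 67.2 and 55.5 CPM, and Elovl6, an elongase, at 64.5, 51.6, 65.3 and 51.6 CPM.

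**Figure D2:**
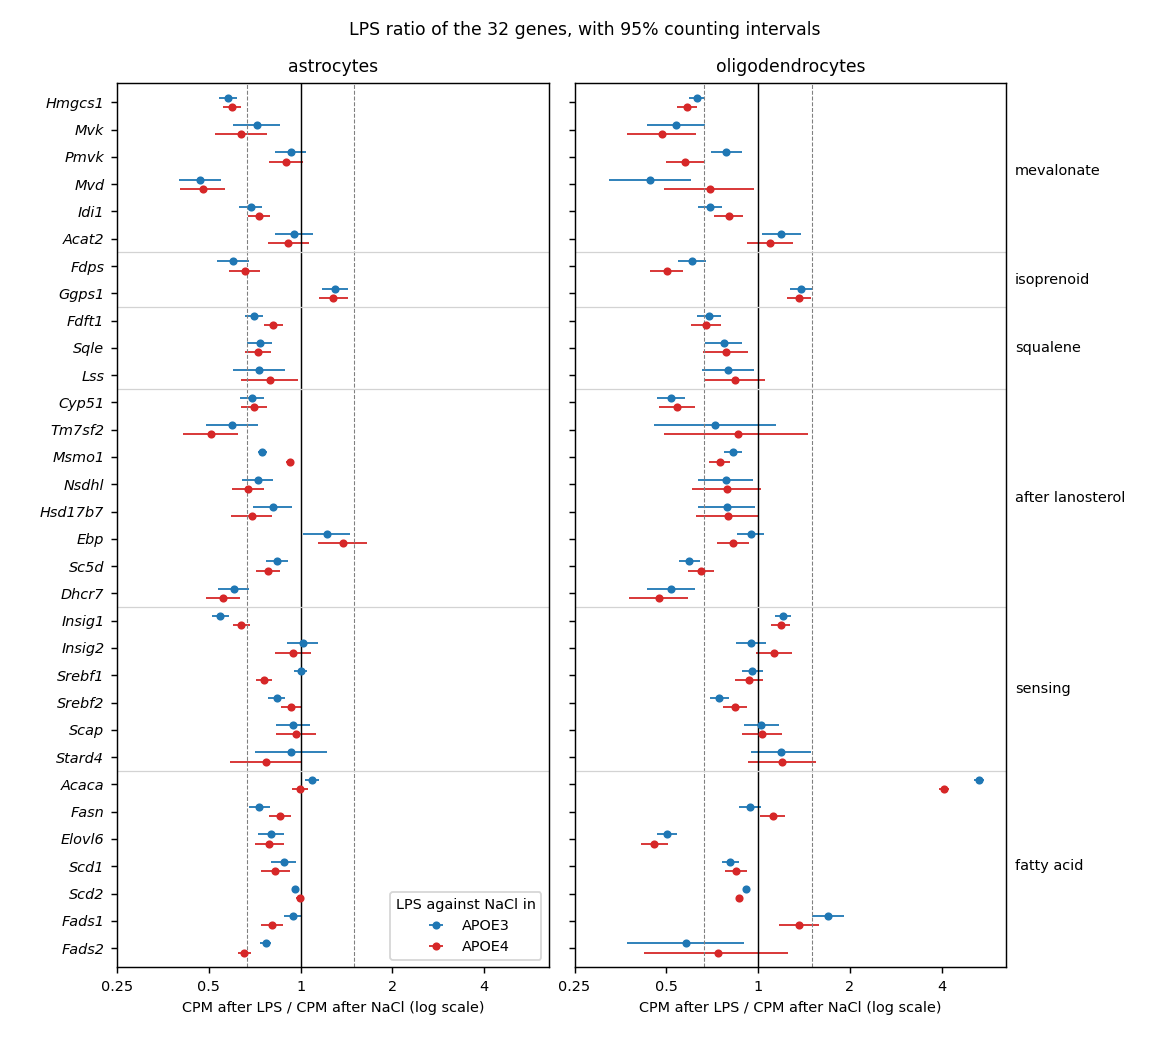
Ratio of CPM after LPS to CPM after NaCl (horizontal, log scale) for each of the 32 genes (vertical, grouped by role), in astrocytes (left) and oligodendrocytes (right), with APOE3 in blue, APOE4 in red and bars for 95% counting intervals. Solid lines mark no difference and dashed lines 1.5-fold. Most points lie left of 1 in both classes, Acaca stands alone at the right in oligodendrocytes (5.29-fold and 4.06-fold), and Insig1 lies left of 1 in astrocytes and right of 1 in oligodendrocytes.

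The astrocytes came from 3 clusters, 1 of which was led by Gfap, Iigp1 and Gbp2 and held 37 of 4245, 183 of 3258, 4 of 3667 and 824 of 2320 astrocytes. The other clusters were compared one at a time. Of the 32 members, 27 or 28 had a ratio below 1 in each. In cluster 2, led by the transcript C030018K13Rik, 9 members (against 11.8% of all genes) were at least 1.5-fold lower after LPS in APOE3 and 15 (against 11.4%) in APOE4. In cluster 4, led by B230323A14Rik, the number was 5 in each genotype, against 9.71% and 11% of all genes. Mvd was 2.88-fold and 2.45-fold lower within cluster 2, and 1.60-fold and 2.07-fold lower within cluster 4. Insig1 was 1.84-fold and 1.67-fold lower within cluster 2 and 1.85-fold and 1.31-fold lower within cluster 4, the last of these short of 1.5-fold. The median mitochondrial share of astrocytes was 3.15%, 4.65%, 3.59% and 3.97%, and 10 microglia markers together stood at 195, 352, 191 and 323 CPM in astrocytes, with none of the 10 at 0. The part of these shifts in the LPS differences was not tested. Microglia themselves held lower levels than astrocytes of every member but Ggps1, Ebp and Insig2 in each library.

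In NaCl, APOE4 astrocytes held more sterol enzyme RNA and slightly less desaturase RNA than APOE3 astrocytes. No APOE4 to APOE3 ratio fell below 1 among the 6 mevalonate, 3 squalene and lanosterol synthesis and 8 later sterol genes. Over all astrocytes no member was 1.5-fold higher or lower (0 of 32, against 3.8% of all genes higher and 6.3% lower). The largest ratios were those of Stard4, 1.497-fold (1.18 to 1.90) and just under the threshold, and Idi1, 1.38-fold (1.29 to 1.48). Hmgcs1 was 1.28-fold higher (1.22 to 1.35), Sqle 1.32-fold (1.22 to 1.43) and Insig1 1.25-fold (1.18 to 1.31). Scd2 went the other way, at a ratio of 0.832 (0.814 to 0.851), with Fads1 at 0.890 (0.833 to 0.9504) and Fads2 at 0.932 (0.897 to 0.969).

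After LPS the same comparison gave ratios in the same direction for these genes. Msmo1 was 1.48-fold higher in APOE4 than in APOE3 (1.43 to 1.53), Idi1 1.47-fold (1.33 to 1.62), Fdps 1.45-fold (1.26 to 1.67) and Insig1 1.46-fold (1.35 to 1.57). Srebf1 was lower in APOE4 after LPS, at 0.749 (0.703 to 0.797), but not in NaCl, at 0.987 (0.9395 to 1.04). Again no member passed 1.5-fold (0 of 32, against 8.49% of all genes higher and 4.84% lower). How far the LPS effect differed between APOE3 and APOE4, on the log2 scale, excluded 0 by counting error for 10 members. No share of all genes is given for that count. The difference reached 1.5-fold for none of the members, against 13% and 7.01% of all genes in the positive and negative direction. It was -0.40 for Srebf1 (-0.51 to -0.28) and 0.30 for Msmo1 (0.23 to 0.37). The genotype difference after LPS was smaller within clusters. The median log2 ratio of the members was 0.16 over all astrocytes, but 0.05, 0.07 and 0.08 within clusters 2, 3 and 4. That of all genes was 0.02 over all astrocytes and -0.02, 0.08 and -0.01 within these clusters, so in cluster 3 the members did not exceed it. In NaCl the median of the members was 0.18 over all astrocytes and 0.16 and 0.13 within clusters 2 and 4. That of all genes was -0.01, -0.02 and 0.01. The 4 comparisons share libraries.

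Single genes passed 1.5-fold between genotypes after LPS in single clusters. In cluster 3, led by Gfap, the 4 desaturases Scd1, Scd2, Fads1 and Fads2 were at least 1.5-fold lower in APOE4 (against 10.6% of all genes), and Msmo1 and Hsd17b7 higher (against 20.5%). Msmo1 was 1.71-fold higher (1.55 to 1.88) in that cluster, and its ratio was 0.980 (0.916 to 1.05) in cluster 2 and 1.17 (1.10 to 1.25) in cluster 4. Without cluster 3, which was led by the APOE4 LPS library, Msmo1 was 1.07-fold higher in APOE4 after LPS, and its LPS ratio was 0.729 in APOE3 and 0.6501 in APOE4, so that the difference of the LPS effects had the opposite sign. Srebf1 and Stard4 were the 2 members lower in cluster 2 (against 7.54%), and Tm7sf2 and Insig1 the 2 higher in cluster 4 (against 6.33%), where Insig1 stood at 1.65 (1.46 to 1.86). Over all astrocytes Insig1 passed the threshold with cells weighted equally (1.59-fold) and without cluster 3 (1.52-fold), and Msmo1, Fdps and Idi1 with Leiden resolution 2 (1.57-fold, 1.53-fold and 1.51-fold). In NaCl, 2 of 32 members were at least 1.5-fold higher in APOE4 within cluster 2 and 0 within cluster 4. No share of all genes is given for these. Over all astrocytes in NaCl, Stard4 reached 1.53-fold under an alternative.

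**Figure D3:**
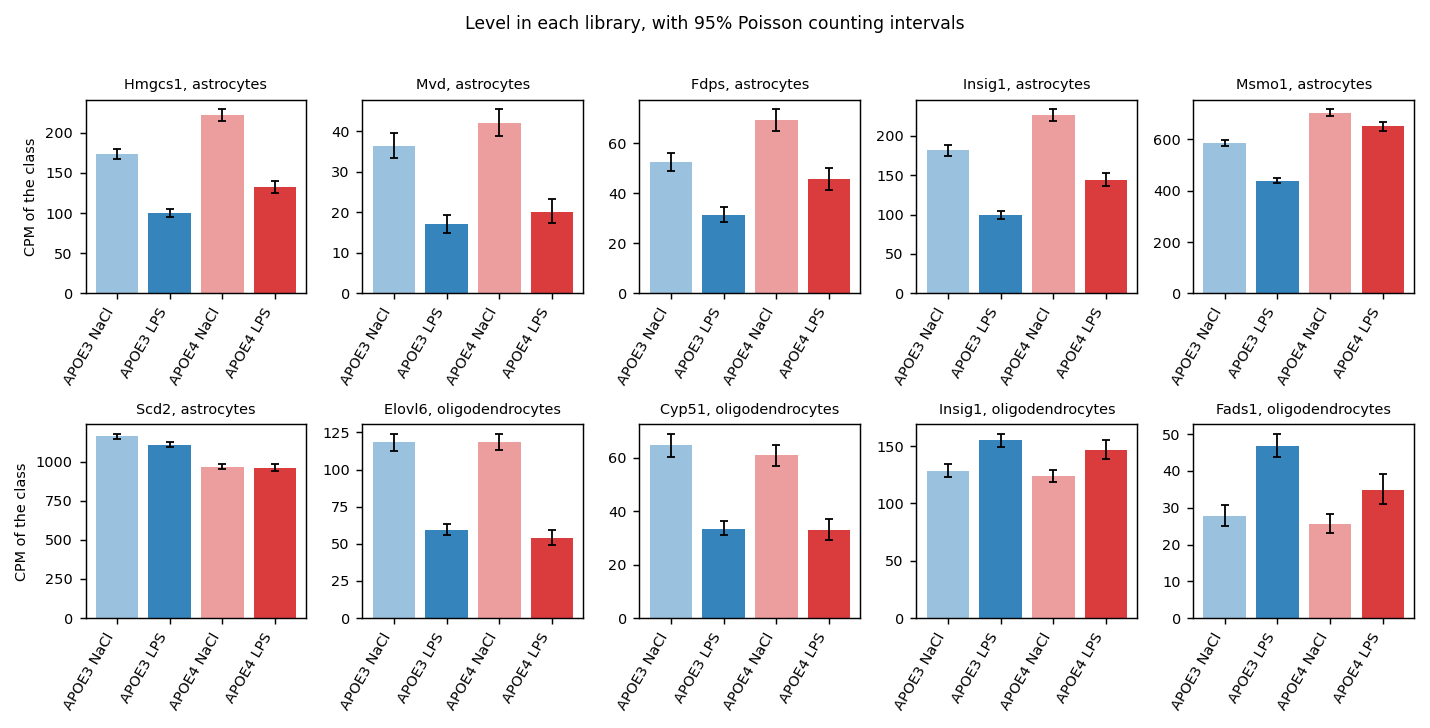
CPM in each of the 4 libraries (bars, pale for NaCl and full for LPS, blue for APOE3 and red for APOE4) with 95% Poisson counting intervals, for 6 genes in astrocytes and 4 in oligodendrocytes. Hmgcs1, Mvd, Fdps and Insig1 are lower in the LPS bar of each genotype in astrocytes, Insig1 is higher in that bar in oligodendrocytes, and Scd2 in astrocytes differs more between genotypes (1161 and 966 CPM in NaCl) than between treatments.

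In oligodendrocytes Acaca was far higher after LPS. It stood at 230.3 CPM (3191 UMIs), 1218 CPM (22255 UMIs), 223 CPM (3510 UMIs) and 907 CPM (7782 UMIs). It was 5.29-fold higher after LPS in APOE3 (5.09 to 5.49) and 4.06-fold higher in APOE4 (3.90 to 4.23), above 99.5% and 98.5% of all genes measured in that class. The LPS levels of both genotypes were far above both NaCl levels. The LPS effect was smaller in APOE4 by 0.38 on the log2 scale (difference -0.38, interval -0.46 to -0.30). In astrocytes the Acaca ratios were 1.09 (1.03 to 1.15) and 0.995 (0.935 to 1.06), in oligodendrocyte precursors 0.810 (0.596 to 1.11) and 0.865 (0.627 to 1.19), and in neurons 0.900 (0.773 to 1.05) and 1.07 (0.932 to 1.22). Acaca was also higher after LPS in microglia, at 23.7, 35.6, 18.0 and 30.5 CPM, or 1.498-fold (1.33 to 1.69) and 1.69-fold (1.45 to 1.99). In the choroid plexus it was 1.43-fold (1.09 to 1.88) and 3.68-fold (2.85 to 4.80) higher, and within choroid plexus cluster 9 the ratios were 1.74 (0.524 to 6.61) and 1.02 (0.496 to 2.02) on 5 to 27 UMIs. The median log2 ratio of all genes measured in the choroid plexus was itself 0.07 and 0.55. In endothelial cells the Acaca ratios were 0.769 (0.617 to 0.959) and 0.905 (0.651 to 1.25).

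Acaca spans chr11:84129672-84401651 on the plus strand in the GENCODE annotation. A gene on the minus strand, Gm11437, lies inside it at chr11:84148351-84167476 and was among the 10 leading genes of the LPS oligodendrocyte cluster. Its level in oligodendrocytes was 13.6, 67.0, 9.67 and 55.8 CPM, 4.91-fold (4.21 to 5.76) and 5.77-fold (4.80 to 6.97) higher after LPS. Whether the counting separated strands is not given in the sources used here, so reads of the 2 genes cannot be told apart with certainty. Acaca is 1 of 9 members that overlap another counted gene, 8 of them on the opposite strand only. The others of these 8 are Hmgcs1, Ggps1, Fdft1, Lss, Cyp51, Srebf1 and Elovl6. Tm7sf2 overlaps Vps51 on the same strand, so its counts are uncertain too. Gm11437 and the genes to either side were chosen for comparison after the Acaca values were seen. Tada2a had ratios of 1.06 (0.966 to 1.16) and 1.12 (0.999 to 1.25) and Aatf of 0.968 (0.864 to 1.09) and 0.952 (0.831 to 1.09).

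**Figure D4:**
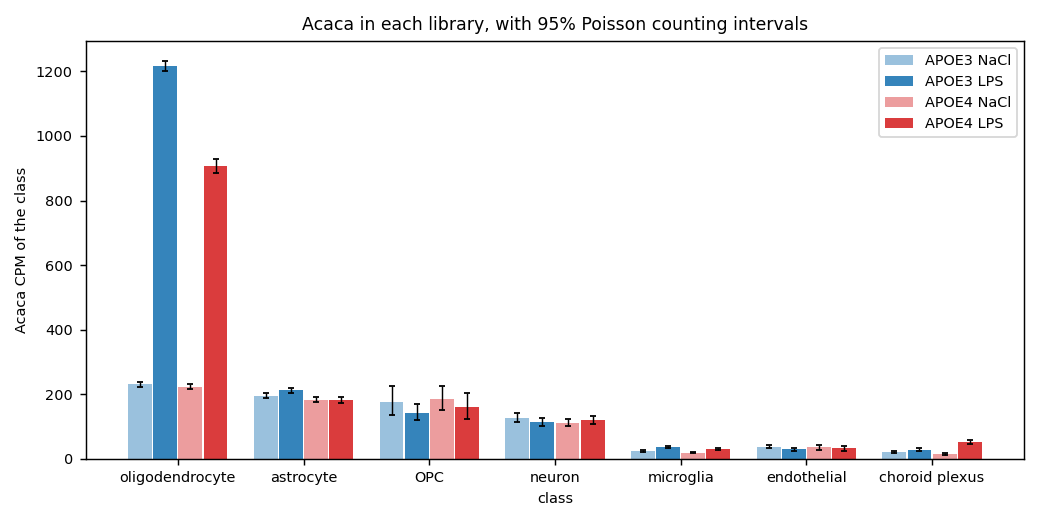
Acaca level in CPM (vertical) in each of the 4 libraries for 7 classes of cells (horizontal), with 95% Poisson counting intervals. In oligodendrocytes both LPS bars (1218 and 907 CPM) tower over both NaCl bars (230.3 and 223 CPM), and in astrocytes, oligodendrocyte precursors and neurons the 4 libraries lie close together.

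The sterol enzymes of oligodendrocytes were lower after LPS, as in astrocytes. Their sum was 959, 715, 1015 and 728 CPM. In APOE3, 9 of 32 members were at least 1.5-fold lower against 14.8% of all genes, and 2 (Acaca and Fads1) at least 1.5-fold higher against 14.7%. In APOE4, 8 were lower against 14.6%, and 1 (Acaca) higher against 16.5%. The median log2 ratio of the members was -0.32 and -0.29, and that of all genes -0.04 and 0.00. NaCl and LPS oligodendrocytes fell into different clusters: clusters 0 and 1 held 2627 and 2812 cells of the NaCl libraries, and cluster 8 held 2703 and 1454 cells of the LPS libraries and none of the NaCl libraries. The LPS libraries had 24 and 39 cells in cluster 0, too few for a comparison within a cluster. The 10 oligodendrocyte markers together stood at 39835, 23767, 41920 and 23430 CPM in this class, and the median mitochondrial share was 3.51%, 4.81%, 3.83% and 4.28%. Their part in the LPS differences was not tested.

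Elovl6, the elongase, differed most among the 7 genes that were at least 1.5-fold lower in both genotypes. It stood at 118.2, 59.5, 118.2 and 53.9 CPM, 1.99-fold lower (1.84 to 2.15) in APOE3 and 2.19-fold lower (1.98 to 2.43) in APOE4. Cyp51, the lanosterol demethylase, stood at 64.5, 33.5, 60.8 and 33.0 CPM, 1.93-fold (1.74 to 2.14) and 1.84-fold (1.61 to 2.11) lower. Dhcr7 was 1.93-fold and 2.11-fold lower, Mvk 1.86-fold and 2.07-fold, Fdps 1.65-fold and 1.99-fold, Hmgcs1 1.59-fold and 1.71-fold, and Sc5d, a sterol C5 desaturase, 1.68-fold and 1.54-fold. Each of these 7 genes had lower levels in both LPS libraries than in both NaCl libraries. Hmgcs1 stood at 171, 107, 178 and 104 CPM there, and Sc5d at 101, 60.1, 98.6 and 64.2 CPM.

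Hmgcs1, Fdps and Dhcr7 met the rule in both glial classes in the main setting. They make up 50% of the 6 genes that were at least 1.5-fold lower in both genotypes in astrocytes and 42.9% of the 7 in oligodendrocytes. The same overlap over all genes is not given here, so these shares are no result about the members. Insig1 took opposite directions, at 129, 155, 124 and 147 CPM in oligodendrocytes, 1.20-fold higher (1.13 to 1.28) in APOE3 and 1.19-fold higher (1.10 to 1.27) in APOE4. Ggps1 was higher in oligodendrocytes as it was in astrocytes, at 66.9, 92.5, 72.6 and 98.7 CPM. Fads1 stood at 27.7, 46.9, 25.6 and 35.0 CPM, 1.69-fold (1.498 to 1.91) and 1.36-fold (1.17 to 1.59) higher.

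Scd2 and Scd1 of oligodendrocytes were lower by little. Scd2 stood at 2843, 2600, 2447 and 2119 CPM, with LPS ratios of 0.915 (0.902 to 0.927) and 0.866 (0.851 to 0.881), and the APOE4 to APOE3 ratio was 0.861 (0.849 to 0.873) in NaCl. Scd1 stood at 133, 108, 114 and 96.4 CPM. Scd1 and Scd2 have close paralogs, so their counts are uncertain. Scd3, such a paralog added after the values were seen, was 2.30-fold (2.10 to 2.52) and 2.58-fold (2.32 to 2.88) higher after LPS in this class. Srebf1 stood at 78.5, 74.9, 69.5 and 64.8 CPM. Srebf2 stood at 108, 80.2, 102 and 85.4 CPM, and Msmo1 at 127, 105, 133 and 99.5 CPM. In NaCl no member differed by 1.5-fold between genotypes in oligodendrocytes (0 of 32, against 5.27% of all genes higher and 5.58% lower). After LPS only Mvd did, at 3.78 and 5.83 CPM (1 of 32, against 9.69% higher and 5.28% lower).

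Microglia held little sterol synthesis RNA, 250, 264, 256 and 262 CPM for the 19 enzymes together, and differed in kind. Pmvk stood at 12.1, 25.7, 14.2 and 21.7 CPM, 2.13-fold (1.81 to 2.51) and 1.53-fold (1.27 to 1.84) higher after LPS. Mvd, lower after LPS in astrocytes, was higher in microglia, at 3.65, 7.41, 2.95 and 6.91 CPM, or 2.03-fold (1.51 to 2.77) and 2.34-fold (1.61 to 3.46). These calls depended on the processing: Pmvk in APOE4 was 1.12-fold higher without clusters led by 1 library, 1.13-fold with Leiden resolution 2 and 1.31-fold with cells weighted equally or a pseudocount of 10. With that pseudocount Mvd was 1.28-fold and 1.31-fold higher. Ggps1 was lower, with ratios of 0.711 (0.657 to 0.769) and 0.713 (0.645 to 0.788), and Scd1 stood at 3.45, 1.76, 2.80 and 1.55 CPM. In all, 2 members were lower and 3 higher in APOE3 (against 22.4% and 11.6% of all genes), and 2 lower and 8 higher in APOE4 (against 25.3% and 15.9%). RNA of other cells was present: the median of 10 oligodendrocyte markers in microglia was 0.258% to 0.472% of its level in oligodendrocytes, and Scd1 in microglia was 1.61% to 2.59% and Scd2 1.99% to 3.56% of theirs. NaCl microglia lay mostly in clusters 5 and 6 and LPS microglia in clusters 21 and 22. Without clusters led by 1 library, 67 and 130 microglia were left in the LPS libraries, against 3023 and 2838 in NaCl. On these, 9 members were lower in APOE3 (against 30% of all genes) and 10 in APOE4 (against 21.6%).

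In endothelial cells Stard4 stood at 88.5, 57.8, 71.8 and 45.4 CPM, 1.53-fold (1.32 to 1.77) and 1.58-fold (1.23 to 2.04) lower after LPS. Insig1 stood at 30.7, 21.3, 35.7 and 51.6 CPM, lower after LPS in APOE3 and higher in APOE4. Hmgcs1 was higher in both, 1.27-fold (1.04 to 1.57) and 1.56-fold (1.17 to 2.10), on 81 to 265 UMIs per library. Of 32 members, 6 were lower and 3 higher in APOE3 (against 19.1% and 14.6% of all genes), and of 30 in APOE4, 2 lower and 11 higher (against 21.1% and 19.5%). RNA of other cells was present here too. The median of 10 astrocyte markers in endothelial cells was 1.38%, 1.23%, 0.994% and 3.58% of its level in astrocytes. That of 10 microglia markers was 0.544%, 3.38%, 0.484% and 8.29% of its level in microglia. Cluster 12 held 812 of 857 and 605 of 606 endothelial cells of the NaCl libraries, and cluster 13 held 799 of 825 and 340 of 384 of the LPS libraries. The part of this RNA and of these clusters in the endothelial ratios was not tested.

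Neurons, present although the preparation was enriched in glia, had lower levels of 4 members in both genotypes. Hmgcs1 stood at 127, 58.2, 121 and 79.1 CPM, 2.18-fold (1.81 to 2.63) and 1.53-fold (1.31 to 1.78) lower after LPS. Srebf2 stood at 107, 51.2, 101 and 61.6 CPM, 2.10-fold and 1.64-fold lower, Sqle 2.15-fold and 1.73-fold, and Fdps 2.12-fold and 1.69-fold. In all, 14 members were at least 1.5-fold lower and 0 higher in APOE3 (against 10.8% and 12.4% of all genes), and 6 lower and 2 higher in APOE4 (against 14.3% and 20.5%). The median neuron held 5798, 5892.5, 7819 and 2007 UMIs, and 483 of the 675 neurons of the APOE4 LPS library lay in a cluster that held 0, 4 and 2 cells of the other libraries. Within cluster 15, which held 341, 346, 423 and 192 of the neurons, 13 members were lower in APOE3 (against 10.7% of all genes) and 7 in APOE4 (against 11.1%).

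Of 48 other genes of these pathways, named on a list of uptake, efflux, SREBP processing, acetyl-CoA supply and fatty acid genes, 4 were at least 1.5-fold lower and 2 higher after LPS in APOE3 astrocytes, and 5 lower and 3 higher in APOE4. The shares lower, 8.33% and 10.4%, were near those of all genes (10.4% and 9.79%), and so are no result about the list. Of all genes, 7.77% and 11% were higher. Their median log2 ratio was -0.07 and -0.09. Vldlr, a lipoprotein receptor, was 1.60-fold and 1.79-fold lower, and Cyp46a1, the cholesterol 24-hydroxylase, 1.65-fold and 1.83-fold lower. Fabp5, a fatty acid binding protein, was 1.54-fold and 1.53-fold lower in astrocytes and 3.09-fold and 2.77-fold lower in oligodendrocytes. Ch25h, the cholesterol 25-hydroxylase, had 2, 20, 1 and 14 UMIs in astrocytes, a ratio of 11.6 (2.82 to 102) and 22.5 (3.42 to 951).

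In oligodendrocytes 7 of these 48 were lower and 8 higher in APOE3, and 8 were lower and 7 higher in APOE4. The shares lower, 14.6% and 16.7%, were near the 14.8% and 14.6% of all genes, as were the counts higher. Abca1, the sterol efflux transporter, stood at 86.6, 187, 73.2 and 159 CPM, 2.16-fold (2.02 to 2.31) and 2.17-fold (2.01 to 2.35) higher after LPS. Mylip, an LXR target, was 2.12-fold and 1.77-fold higher, Acss2, an acetyl-CoA synthetase, 1.56-fold and 1.57-fold, and Lpin1, a phosphatidate phosphatase, 1.54-fold and 1.81-fold. Nr1h3, which encodes an LXR, was higher on 5, 20, 6 and 11 UMIs. Acsl3, an acyl-CoA synthetase, was 1.86-fold lower in both genotypes, and Cyp46a1 and Fabp7 were lower as well on 10 to 109 UMIs.

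In microglia 11 of 46 were lower and 8 higher in APOE3, and 6 of 44 lower and 7 higher in APOE4. The shares lower were 23.9% and 13.6%, against 22.4% and 25.3% of all genes, and 11.6% and 15.9% of all genes were higher. Thrsp, a regulator of lipogenesis, stood at 76.7, 20.03, 87.2 and 14.0 CPM, 3.83-fold (3.48 to 4.22) and 6.25-fold (5.37 to 7.30) lower after LPS. Npc1, the lysosomal sterol transporter, was 1.64-fold and 1.76-fold lower, and Mid1ip1, Acsl6 and Lpin1 were lower in both genotypes by 1.64-fold to 2.15-fold. Hacd2 and Hsd17b12, enzymes of the fatty acid elongation cycle, were 2.19-fold and 2.84-fold, and 1.55-fold and 2.27-fold, higher. Elovl5, Soat1, which esterifies cholesterol, and Ch25h were also higher in both. In endothelial cells 12 of 44 were lower and 5 higher in APOE3, and 6 of 43 lower and 10 higher in APOE4. The shares lower were 27.3% and 14.0%, against 19.1% and 21.1% of all genes, and 14.6% and 19.5% of all genes were higher. Ch25h, which was among the 10 leading genes of cluster 13, stood there at 17.1, 539, 25.04 and 428 CPM, 31.6-fold (25.1 to 40.2) and 17.1-fold (13.2 to 22.5) higher after LPS. Lrp1 and Hsd17b12 were also higher, and Acacb and Acsl3 lower, in both genotypes.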

How the data were processed

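The authors deposited raw UMI counts per gene and cell barcode, which per the file headers come from Cell Ranger 7.0.1, and the submitters' processing notes name the mm10 genome. Whether intronic reads were counted and whether strands were separated is not given in the sources used here. A barcode was kept from 500 genes and 1000 UMIs upward if mitochondrial UMIs made up 20% or less, and Scrublet doublets were removed. Scrublet marked none in the APOE4 LPS library, so doublets there were not removed. Cells were clustered in scanpy 1.11.5 (2000 variable genes, 30 principal components, 15 neighbours, Leiden at resolution 1), giving 33 clusters. A cluster was named from marker lists when at least 3 markers led it. The further requirements of 50% of a type's markers, and of fewer than 3 markers of another major type, were added after the clusters were seen, and differences from the study's own annotation may come from these names.

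Counts of a class were added up within each library. Ratios of CPM carry exact conditional binomial (Clopper-Pearson) intervals and levels exact Poisson intervals, at 95%, from scipy 1.17.1. The difference of the LPS effects carries an approximate interval on the log scale. A gene was measured with at least 10 UMIs in 1 of the 2 libraries and called at 1.5-fold, and log2 medians use CPM plus 1. The interval formulas were also run on simulated counts, which cannot show the spread between mice or libraries. Precision is limited by the UMIs of a class summed in each library. The APOE4 LPS library had the fewest UMIs per barcode but not the fewest in total (88460913, against 73288965 in APOE4 NaCl).

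Named members are those at least 1.5-fold different in both genotypes, or in both treatments, with intervals excluding 1, the 10 highest in astrocytes and oligodendrocytes, and the sterol regulators. Of the other pathway genes, those past 1.5-fold in both genotypes with such intervals are named. The members and lists were chosen with earlier results of these data known. Some genes of these pathways are not reported here, and were taken off the list of other genes after their values had been seen. The alternatives tried were other filters, doublets kept, a finer clustering, equal weight per cell, centred ratios, other pseudocounts and count minimums, and leaving out clusters led by 1 library. Values within clusters were an alternative added after the data were seen.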

Additional observations from a re-analysis of the deposited data

Results flagged for a closer look

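In microglia the LPS effect on Scd2 had opposite directions in the 2 genotypes, at 67.8, 51.7, 61.0 and 75.4 CPM. The ratio was 0.764 in APOE3 and 1.24 in APOE4, and the difference of the effects was 0.69 on the log2 scale. With Leiden resolution 2 the APOE4 ratio of Scd2 was 0.750, and without clusters led by 1 library 0.643, both below 1 as in APOE3. In endothelial cells Insig1 did the same, at 30.7, 21.3, 35.7 and 51.6 CPM, with ratios of 0.694 and 1.44 and a difference of 1.06 on the log2 scale. The single libraries of each group moved in opposite ways, and neither difference was tested.

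Insig1 also took opposite directions in 2 classes of cells from the same libraries. Its ratio of LPS to NaCl was 0.546 in APOE3 and 0.638 in APOE4 in astrocytes, and 1.20 in APOE3 and 1.19 in APOE4 in oligodendrocytes. The difference between the classes was not tested.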

How the results depend on the processing

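With 1 library per group, no setting could be judged against replicate spread, no library could be left out, and no paired analysis was possible because the groups share no replicates. The number of members at least 1.5-fold lower after LPS in APOE3 astrocytes (6) stayed within 1.5 times under all 9 alternatives. In APOE4 astrocytes it was 5 in place of 8 with Leiden resolution 2, and in APOE3 oligodendrocytes 5 in place of 9 with a pseudocount of 10. Idi1, Sqle, Cyp51, Msmo1, Nsdhl, Hsd17b7, Stard4 and Fasn fell short of 1.5-fold in APOE4 astrocytes in the main setting. At their lowest under an alternative they were 1.53-fold to 1.80-fold lower after LPS. Some named genes lost the call instead, by their smallest difference under an alternative. In astrocytes Tm7sf2 was then 1.37-fold lower in APOE3, and Fdps 1.34-fold and Insig1 1.47-fold in APOE4. In oligodendrocytes Mvk was 1.38-fold and Dhcr7 1.497-fold lower in APOE3, and Sc5d 1.46-fold in APOE4. Stard4 in endothelial cells was 1.44-fold lower in APOE3 and 1.48-fold in APOE4. In microglia the count of 2 in APOE3 became 1 with ratios centred on the median gene, 9 without clusters led by 1 library and 0 with a pseudocount of 10. The count of 2 in APOE4 became 1 with cells weighted equally, 10 without those clusters, and 0 with a minimum of 50 UMIs or a pseudocount of 10. In endothelial cells the count of 6 in APOE3 became 2 with centred ratios, 3 with 50 UMIs and 1 with a pseudocount of 10. The count of 2 in APOE4 became 1 with doublets kept, at least 2000 UMIs per cell, at most 10% mitochondrial UMIs, Leiden resolution 2, centred ratios or 50 UMIs, and 0 with a pseudocount of 10. No share of all genes under the same settings is given for these counts, so their changes are no result about the members. The median log2 ratio of the members changed sign in 5 cases. In oligodendrocytes it became 0.010 for genotype in NaCl with cells weighted equally, and 0.026 for the difference of LPS effects with at least 2000 UMIs per cell. In microglia it became 0.022 for LPS in APOE3 with centred ratios. Without clusters led by 1 library it became -0.017 for LPS in APOE4 and -0.16 for the difference of LPS effects. The cause of these shifts was not tested. Leaving out clusters led by 1 library gave no value for LPS in oligodendrocytes and endothelial cells. Depth limits the rarer classes most.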

Other observations

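In the choroid plexus, which secretes cerebrospinal fluid, Idi1 stood at 40.6, 16.7, 44.1 and 19.5 CPM, 2.43-fold (1.86 to 3.20) and 2.26-fold (1.80 to 2.85) lower after LPS in APOE3 and APOE4. Fdps was 1.53-fold and 1.92-fold lower there, and Nsdhl 1.83-fold and 1.52-fold lower. The median log2 ratio of the members in the choroid plexus was -0.40 and -0.02, and that of all genes 0.07 and 0.55. Cluster 7 held 139 of 533, 94 of 535, 67 of 599 and 814 of 1141 of these cells, the median cell held 6176, 5227, 7262 and 2498 UMIs, and 10 microglia markers together stood at 284, 2128, 313 and 2630 CPM. Within cluster 9, the other choroid plexus cluster, Idi1 was 2.48-fold and 2.79-fold lower, Fdps 1.55-fold and 1.62-fold, and Nsdhl 1.52-fold (0.932 to 2.50) and 1.18-fold (0.826 to 1.72). The part of the microglia RNA was not tested. In ependymal cells, which line the ventricles, Srebf1 stood at 252, 163, 231 and 153 CPM, 1.55-fold (1.35 to 1.77) and 1.504-fold (1.26 to 1.80) lower. In fibroblasts Insig1 stood at 58.1, 19.4, 59.0 and 36.4 CPM, 3.00-fold (2.06 to 4.36) and 1.62-fold (1.12 to 2.32) lower. The median log2 ratio of the members was -0.17 and -0.01 in ependymal cells (all genes -0.05 and -0.02). It was -0.18 and -0.01 in fibroblasts (all genes -0.12 and -0.04).

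In oligodendrocyte precursors Elovl6 stood at 181, 119, 194 and 92.4 CPM, 1.52-fold (1.10 to 2.08) and 2.10-fold (1.44 to 3.10) lower after LPS. The median log2 ratio of the members measured there (27 and 26) was 0.28 in APOE3 and -0.18 in APOE4, and that of all genes 0.02 and -0.08. Hmgcs1 was higher in these cells on 7, 73, 24 and 34 UMIs, while it was lower in astrocytes, oligodendrocytes and neurons. In the precursors the oligodendrocyte markers together stood at 1060, 6449, 1426 and 3178 CPM, the microglia markers at 380, 1439, 238 and 1642 CPM, and their own markers at 11693, 8288, 11993 and 7552 CPM, and the part of these shifts was not tested. Among the 12 classes, Msmo1 in border macrophages was the only member at least 1.5-fold different between genotypes in both treatments with intervals excluding 1. It stood at 135.8, 98.0, 84.3 and 59.96 CPM, 1.61-fold (1.02 to 2.60) lower in APOE4 in NaCl and 1.63-fold (1.14 to 2.38) lower after LPS, on 29 to 112 UMIs. Msmo1 was not alone in its direction in border macrophages. The median log2 ratio of APOE4 to APOE3 over the members measured there was -0.68 in NaCl (20 members) and -0.25 after LPS (27 members). That of all genes was -0.01 and -0.06. None of these differences had a replicate check.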
